A study of Mus musculus with 22 samples.

Results

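Syndecans and glypicans are the main families of cell-surface proteins that carry heparan sulfate chains. Their 10 mouse genes, Sdc1 to Sdc4 and Gpc1 to Gpc6, were found in the count table by gene symbol. Chosen by family name, they make up 10 of 53379 genes listed, and all 10 were among the 40714 genes that passed the filter on low counts. The families themselves were selected on the fold change of Sdc1 between kainate and sham NeuN+ nuclei, which was already known. That comparison is therefore described without a test for the members, and so is every comparison of Sdc1 that uses the NeuN+ libraries.

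The nuclei came from the left hippocampus of adult male C57/BL6N mice, bought at an age of 8 weeks and kept for a further 4 weeks. Kainate, an agonist of glutamate receptors, had been injected above the right hippocampus to start status epilepticus, and sham mice had received saline at the same place. Tissue was taken 24 h later, so every group is contralateral to the needle and every mouse had undergone surgery and anaesthesia. Each treatment had 8 mice, pooled into 3 samples of 4 or 2 mice, so a library is a pool and not an animal. The extraction protocol in the labels names the right side, whereas the series design and the study's methods name the left. Nuclei were sorted on the neuronal protein NeuN into NeuN+ nuclei, called neurons here, and NeuN- nuclei, a mixture of glia and all other NeuN- cells. Polyadenylated RNA was sequenced from 3 sham NeuN+, 3 kainate NeuN+, 2 sham NeuN- and 3 kainate NeuN- libraries. The sham NeuN- group holds replicates 1 and 3.

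Total counts ran from 12058875 to 45428465 per library. Replicate 1 of the sham NeuN- group and replicate 2 of the kainate NeuN- group started from 0.05 ng of RNA and 15 PCR cycles, the others from 1 ng and 10 cycles. The 6 neuronal markers summed to 2835 to 6646 CPM (counts scaled to the TMM-adjusted library size) in NeuN+ libraries and to 465 to 745 CPM in NeuN- libraries. The 4 oligodendrocyte markers summed to 175 to 408 CPM in NeuN+ and to 4028 to 33651 CPM in NeuN- libraries. The sort therefore separated the fractions, with neuronal RNA still present in the NeuN- libraries. Libraries with the same replicate number deviated together from their group means, and a fit with a replicate block is given beside each result whose call it changed. No source used here pairs kainate with sham pools, so that pairing was read from these data. The block is the replicate number within each fraction for the treatment comparisons and the pool for the comparisons between fractions. In pooled nuclei, fewer cells of a type and less RNA per cell cannot be told apart.

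Heparan sulfate is a long sulfated sugar chain that binds growth factors, morphogens, adhesion proteins and synaptic organisers. Syndecans span the membrane, link the chains to the cytoskeleton through a short cytoplasmic tail, and can be shed from the surface by metalloproteinases. Glypicans are attached to the membrane by a lipid anchor and can be released by lipases. In the brain, Sdc3 is the classical neuronal syndecan, Sdc2 is known from dendritic spines, Sdc4 is abundant in astrocytes, and Sdc1 is best known from epithelia and plasma cells. Gpc4 and Gpc6 are known as astrocyte-secreted factors that recruit AMPA receptors to synapses, and neuronal Gpc4 binds the synaptic proteins Lrrtm4 and Gpr158.

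Promoter sequences from RefSeq (GRCm38.p6) were held for 7 of the 10 genes. The 250 bases before the RefSeq start of each were searched on both strands for the GC box GGGCGG, the AP-1 site TGACTCA (or TGAGTCA), the cAMP response element TGACGTCA and the E-box CACGTG. By the gene annotation, all of the Gpc4 and Sdc4 windows and part of the Gpc2 and Sdc1 windows lie inside the gene. At least 1 GC box lay in 7 of 7 windows, against 32.7% of 32851 promoters. The GC content of the windows was 51.2% for Gpc5 and 66% to 76.4% for the other 6, against a median of 52.4% over all promoters. AP-1 sites, cAMP response elements and E-boxes were in 0 of 7, against 4.46%, 1.55% and 6.02% of all promoters. The windows of Sdc1 and Sdc4 are shown because these genes were higher with kainate in every same-numbered pair of both fractions, with GC boxes in capitals and the strand of the gene. The Sdc1 sequence lies on the plus strand at chr12:8771146-8771322, covers 177 bases and stops before the first annotated exon. The Sdc4 sequence lies on the minus strand at chr2:164443189-164443438 and covers 250 bases before the RefSeq start, within an intron of a longer annotated transcript.
Sdc1: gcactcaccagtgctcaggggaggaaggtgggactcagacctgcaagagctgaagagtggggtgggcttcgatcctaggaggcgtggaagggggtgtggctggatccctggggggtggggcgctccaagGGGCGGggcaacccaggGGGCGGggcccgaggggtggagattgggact
Sdc4: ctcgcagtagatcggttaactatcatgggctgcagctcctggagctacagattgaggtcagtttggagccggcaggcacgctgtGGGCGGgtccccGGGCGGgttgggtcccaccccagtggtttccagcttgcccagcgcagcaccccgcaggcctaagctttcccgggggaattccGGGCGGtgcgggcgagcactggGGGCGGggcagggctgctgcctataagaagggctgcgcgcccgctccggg
A match of these letters is a description of the window and not a measured binding site.

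Which family members did each fraction use? Levels were compared between genes as CPM per kilobase of annotated exon. In sham neurons Gpc1 led at 32.8 ± 11.6 CPM per kb (SD, n = 3), followed by Sdc3 at 22.9 ± 9.12 and Gpc4 at 21.1 ± 9.70. The ranges of these 3 genes overlapped between libraries, but within each library the order was Gpc1, Sdc3, Gpc4. Sdc2 came next at 8.46 ± 4.80 CPM per kb and lay above the remaining 6 genes in every library. Gpc5, Gpc6 and Gpc3 followed at 2.74, 2.71 and 2.34 CPM per kb with overlapping ranges. Sdc4 at 1.27, Sdc1 at 0.475 and Gpc2 at 0.270 CPM per kb closed the order. The neuronal repertoire of sham mice was thus mainly Gpc1, Sdc3 and Gpc4, which together held most of the summed level.

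In sham NeuN- nuclei Sdc3 stood at 44.5 CPM per kb, Sdc4 at 31.7, Gpc1 at 23.7, Gpc5 at 18.4 and Sdc2 at 15.2 (means of 2 libraries). Replicates 1 and 3 of this group lay far apart for these genes, from 23.3 to 65.7 CPM per kb for Sdc3 and from 10.6 to 52.9 for Sdc4, so the ranges of neighbours overlapped. Within both libraries Sdc3 lay above Sdc4 and Gpc1, and Gpc5 above Sdc2. Sdc4 and Gpc1 changed places between the libraries. Gpc4, Gpc6 and Gpc2 followed at 4.75, 4.20 and 2.84 CPM per kb, each range overlapping that of its neighbour. Sdc1 at 1.57 and Gpc3 at 0.882 CPM per kb were the lowest, each below its neighbour in both libraries.

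**Figure D1:**
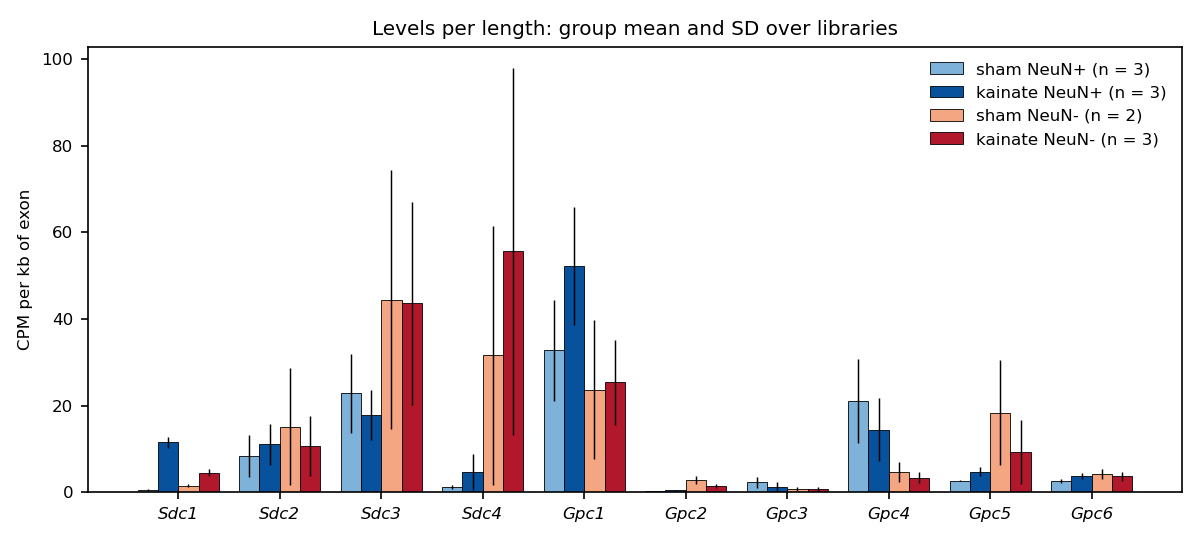
Mean level of each gene per group in CPM per kilobase of exon, with bars for the SD over libraries (n = 3, and n = 2 for sham NeuN-). Gpc1 has the tallest bar of the kainate NeuN+ libraries (52.3), Sdc4 that of the kainate NeuN- libraries (55.6), and Sdc1 moves from 0.475 to 11.6 between sham and kainate neurons.

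With kainate the order in neurons changed mainly through Sdc1, which moved from the ninth to the fourth place at 11.6 ± 1.30 CPM per kb. Among all tested genes ranked by level per length, Sdc1 went from percentile 33.6 to 86.1 in neurons and from 55.3 to 75.4 in NeuN- nuclei. Gpc1 kept the first place in neurons at 52.3 CPM per kb and lay above Sdc3, at 17.9, in every library, as in sham neurons. In kainate NeuN- nuclei Sdc4 was first at 55.6 ± 42.3 CPM per kb, with Sdc3 at 43.6 and Gpc1 at 25.4, and the ranges of all 3 overlapped. Within each library Sdc4 and Sdc3 both lay above Gpc1.

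Sdc1, whose protein is the CD138 antigen of plasma cells, was low in sham neurons. Replicates 1, 2 and 3 of sham neurons held 0.671, 2.21 and 2.55 CPM (10, 77 and 79 counts), and those of kainate neurons 45.3, 48.4 and 38.7 CPM (637, 1901 and 860 counts). The groups did not overlap, and the spread among kainate libraries was small beside the gap. The fitted log2 fold change was 4.58 ± 0.47 (SE), a 23.9-fold higher level, and the rise within same-numbered pairs ran from 15.2-fold to 67.5-fold, the upper value resting on the 10 counts of replicate 1. It lay between 4.21 and 4.89 on the log2 scale over the 23 alternative settings. The 3 plasma and B cell markers Cd79a, Jchain and Mzb1 summed to 3.16 to 3.87 CPM in sham and 1.92 to 5.63 CPM in kainate neurons, and the part of such cells in the Sdc1 value was not tested.

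In NeuN- nuclei Sdc1 stood at 4.98 and 6.99 CPM in sham replicates 1 and 3, and at 14.4, 20.3 and 17.7 CPM in kainate replicates 1, 2 and 3. Every kainate library was above both sham libraries. The log2 fold change of 1.54 ± 0.48 had an unadjusted p of 0.00670 and an adjusted p of 1.00 in edgeR's quasi-likelihood test, so it did not pass. With the replicate block it was 1.43 ± 0.32 with an adjusted p of 0.00320, and DESeq2 gave an adjusted p of 0.186. Without sham NeuN- replicate 3 the unblocked value was 1.80 with an adjusted p of 0.241, in a fit that holds 1 low-input sham NeuN- library, takes its spread from the other groups and called 2812 of 42640 genes. Within the pairs Sdc1 was 2.89-fold higher in replicate 1 and 2.53-fold higher in replicate 3, whose libraries both started from 1 ng of RNA. The neuronal marker sum of the NeuN- libraries was 465 to 647 CPM in sham and 513 to 745 CPM in kainate, and the part of neuronal RNA in the Sdc1 value was not tested.

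Between the fractions, Sdc1 therefore changed its side. In sham mice it was lower in NeuN+ than in NeuN- nuclei, with a log2 fold change of -1.70 ± 0.46, and in kainate mice it was higher, with 1.34 ± 0.41. The groups did not overlap on either occasion. The kainate effect was larger in neurons by 3.03 ± 0.62 on the log2 scale, and by 3.19 ± 0.42 with the replicate block. These values share the NeuN+ libraries through which Sdc1 was noticed, and carry no test here.

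**Figure D2:**
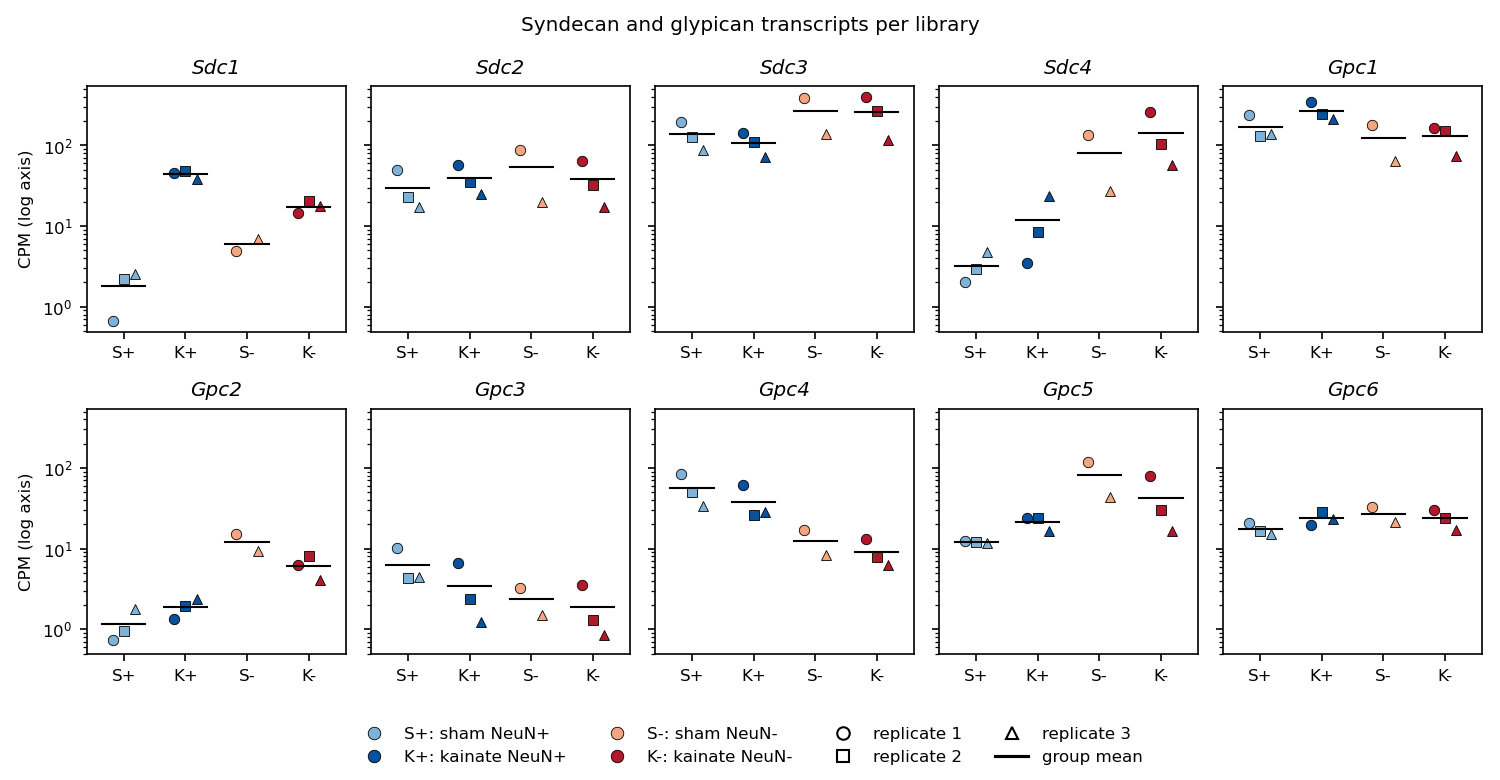
CPM of each gene in each of the 11 libraries on a log axis, by group, with symbols for the replicate number and lines for group means. Sdc1 is at 0.671 to 2.55 CPM in sham neurons and 38.7 to 48.4 CPM in kainate neurons, whereas most other genes differ more between fractions or replicates than between treatments.

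Sdc2, Sdc3 and Sdc4 behaved differently from Sdc1. Sdc2, known from dendritic spines and fibroblasts, ranged from 17.2 to 49.1 CPM in sham and from 24.7 to 57.7 CPM in kainate neurons, and from 20.0 to 87.0 CPM in sham and 17.1 to 64.7 CPM in kainate NeuN- nuclei. The groups overlapped in every comparison, and Sdc2 was called neither without nor with the replicate block. Of the other alternatives, 1 called it, between the fractions of sham mice without sham NeuN- replicate 3 (-1.55, adjusted p = 0.178), which leaves 1 low-input library in that group. Replicate 1 had the highest Sdc2 of each group.

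Sdc3, the syndecan of axons, stood at 196, 128 and 87.6 CPM in sham and 141, 109 and 72.1 CPM in kainate neurons (replicates 1, 2 and 3). NeuN- nuclei held 393 and 140 CPM in sham and 397, 271 and 116 CPM in kainate libraries. In sham mice the fractions overlapped, at a log2 fold change of -0.96 ± 0.57 (adjusted p = 0.457, and 0.0654 with the replicate block). Unblocked alternatives called it with a minimum CPM of 1 (-1.02, adjusted p = 0.228), without sham NeuN- replicate 3 (-1.52, adjusted p = 0.138), without kainate NeuN- replicate 3 (-1.17, adjusted p = 0.116) and in a separate fit (-1.19, adjusted p = 0.192), whereas it was 0.01 without sham NeuN- replicate 1. In kainate mice Sdc3 was lower in neurons by a log2 fold change of -1.28 ± 0.52 (adjusted p = 0.169, and 0.00407 with the block). That unblocked call was lost without kainate NeuN+ replicate 2 or 3 or kainate NeuN- replicate 1 or 2, with adjusted p from 0.325 to 0.373, and with low RNA input as a covariate (-1.07, adjusted p = 0.264). Sdc3 was lower in neurons than in NeuN- nuclei in each of the 5 pools measured in both fractions. Antisense genes share 7.73% of its exon bases, and the strand setting of the counting is not given in the sources used here.

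Sdc4, which anchors focal adhesions and is abundant in astrocytes, stood at 2.01, 2.90 and 4.77 CPM in sham and 3.49, 8.44 and 23.9 CPM in kainate neurons. In NeuN- nuclei it was at 135 and 27.0 CPM in sham replicates 1 and 3 and at 263, 105 and 56.6 CPM in kainate replicates 1, 2 and 3. Every NeuN- library was above every NeuN+ library. The log2 fold change of neurons against NeuN- nuclei was -4.63 ± 0.87 in sham mice (adjusted p = 0.00416) and -3.56 ± 0.80 in kainate mice (adjusted p = 0.00994), both by edgeR's quasi-likelihood test, and it was called in all 23 alternatives for each. Its size depended on single libraries. In sham mice it ran from -5.37, without sham NeuN- replicate 3, to -3.01, without sham NeuN- replicate 1, and the pools differed 66.8-fold and 5.65-fold. In kainate mice it ran from -4.56, without kainate NeuN+ replicate 3, to -2.68, without kainate NeuN- replicate 1, with 2.37-fold to 75.4-fold differences within the pools.

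Within same-numbered pairs Sdc4 was higher with kainate throughout. The kainate library was 1.73-fold, 2.91-fold and 5.01-fold higher in neurons and 1.95-fold and 2.10-fold higher in NeuN- nuclei. For NeuN- nuclei the fit gave 0.81 ± 0.83 on the log2 scale (adjusted p = 1.00) without and 1.02 ± 0.25 (adjusted p = 0.00804) with the replicate block. The block rests there on replicates 1 and 3, since replicate 2 has no sham partner. Leaving out a library moved the unblocked value between -0.14, without kainate NeuN- replicate 1, and 2.42, without sham NeuN- replicate 1, and leaving out both low-input libraries gave 2.60. In neurons the value was 1.88 ± 0.76, and 1.67 ± 0.23 with the block. Without kainate NeuN+ replicate 3 it was 0.89. That library also had the highest sum of the 5 astrocyte markers among neurons, 218 CPM against 66.1 to 124 CPM in sham and 68.7 and 119 CPM in the other kainate neurons, and the part of astrocyte RNA in the neuronal Sdc4 was not tested.

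**Figure D3:**
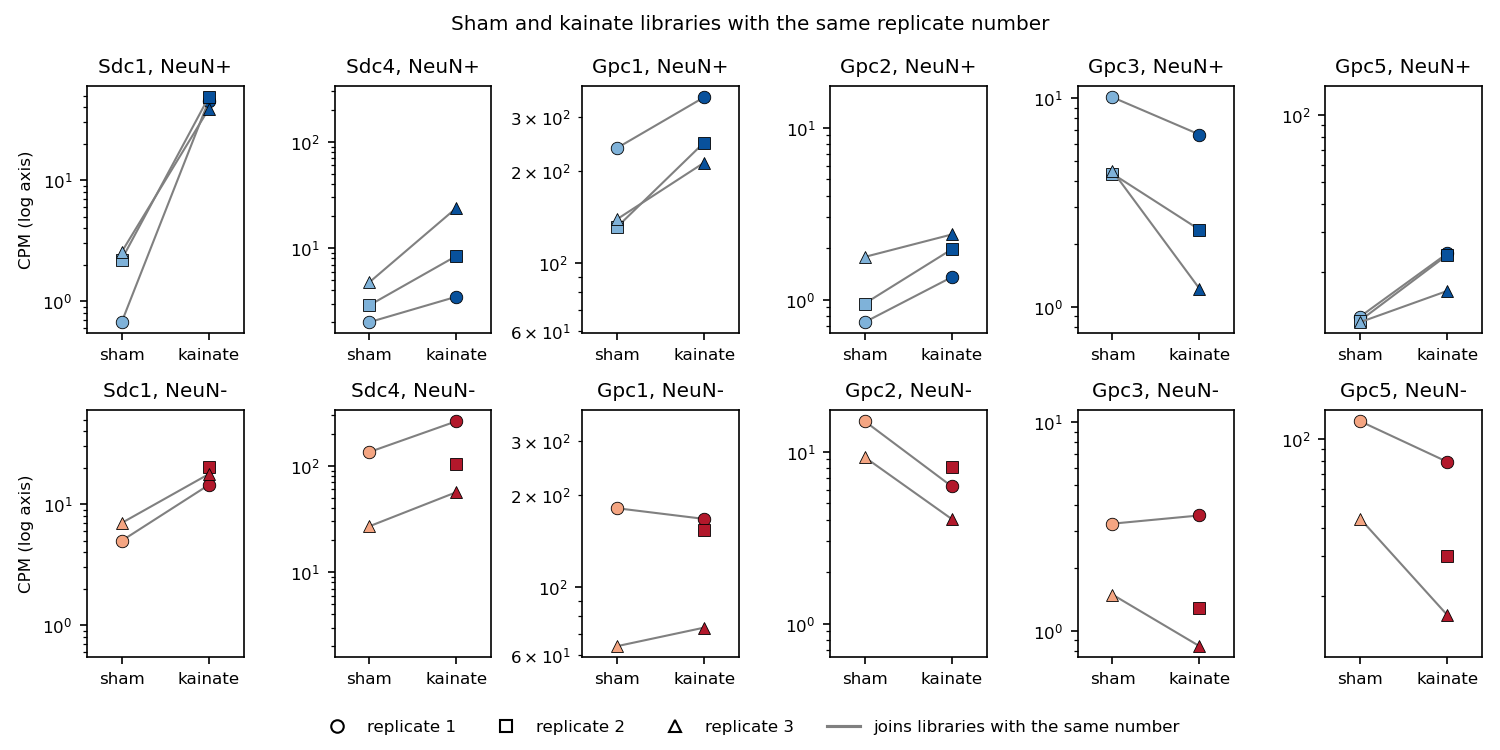
CPM on a log axis of 6 genes in sham and kainate libraries, upper row NeuN+, lower row NeuN-, with lines joining libraries of the same replicate number (3 pairs in NeuN+, 2 in NeuN-). Sdc1 and Sdc4 climb along every line of both rows, and Gpc2 and Gpc5 climb in NeuN+ and descend in NeuN-.

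Among the glypicans, Gpc4 and Gpc2 were called between the fractions of both treatments in all 23 alternatives, and Gpc5 between those of sham mice. Gpc4, the glypican partner of Lrrtm4 and Gpr158, was at 84.1, 50.1 and 33.7 CPM in sham and 60.7, 26.2 and 28.1 CPM in kainate neurons. The NeuN- libraries held 16.9 and 8.23 CPM in sham and 13.0, 7.87 and 6.32 CPM in kainate libraries. Every neuronal library was above every NeuN- library. Gpc4 was higher in neurons by a log2 fold change of 2.15 ± 0.57 in sham mice (adjusted p = 0.0280) and 2.08 ± 0.49 in kainate mice (adjusted p = 0.0125), and each was called in all 23 alternatives. The sham value was 2.80 without sham NeuN- replicate 1. Gpc4 is best known as an astrocyte product, yet its RNA in these libraries was 3.33 to 4.96 times as high in neuronal as in NeuN- nuclei of the same pool. In neurons the kainate effect was -0.55 ± 0.47, and -0.56 ± 0.21 with the block, and in NeuN- nuclei it was -0.48 ± 0.52 (adjusted p = 1.00).

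Gpc2, a glypican of developing neurons and axons, was at 0.739, 0.948 and 1.77 CPM in sham and 1.35, 1.96 and 2.39 CPM in kainate neurons (11 to 77 counts). The NeuN- libraries held 15.0 and 9.27 CPM in sham and 6.27, 8.11 and 4.05 CPM in kainate libraries. Every NeuN- library was above every neuronal one, and every kainate NeuN- library below both sham ones. The fraction difference was a log2 fold change of -3.38 ± 0.55 in sham mice (adjusted p = 0.00202) and -1.68 ± 0.49 in kainate mice (adjusted p = 0.0429), called in all 23 alternatives for each. In NeuN- nuclei the kainate effect was -0.98 ± 0.52 (adjusted p = 1.00) without and -1.23 ± 0.38 (adjusted p = 0.0712) with the block. The unblocked value ran from -1.30 to -0.57 with a library left out, the smaller effect without sham NeuN- replicate 1. A protein-coding gene model on the same strand, Gm43720, shares 55.6% of the exon bases of Gpc2, so its counts depend on how shared reads were assigned.

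Gpc5, a large glypican gene expressed by astrocytes and oligodendrocyte precursors, was at 12.6, 12.1 and 11.9 CPM in sham and 24.1, 23.7 and 16.4 CPM in kainate neurons. In NeuN- nuclei it was at 120 and 44.1 CPM in sham and at 79.1, 30.1 and 16.4 CPM in kainate libraries. In sham mice Gpc5 was lower in neurons by a log2 fold change of -2.75 ± 0.58 (adjusted p = 0.00752), and was called in all 23 alternatives. The value ran from -3.30, without sham NeuN- replicate 3, to -1.81, without sham NeuN- replicate 1. In kainate mice the difference was -0.96 ± 0.52 (adjusted p = 0.321, and 0.192 with the block), and the fractions overlapped. It was called in 9 of the 23 alternatives. Besides the block these were DESeq2 (adjusted p = 0.236), a minimum CPM of 1 (adjusted p = 0.166), the newer quasi-likelihood method (adjusted p = 0.225), a separate fit (adjusted p = 0.175), and the fits without sham NeuN- replicate 1 (adjusted p = 0.221), sham NeuN- replicate 3 (adjusted p = 0.213), both low-input libraries (adjusted p = 0.248) or kainate NeuN- replicate 3 (-1.49, adjusted p = 0.0383). Without kainate NeuN- replicate 1 it was -0.10 (adjusted p = 0.898).

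The kainate effect on Gpc5 in NeuN- nuclei was -0.97 ± 0.56 (adjusted p = 1.00) without and -1.01 ± 0.26 (adjusted p = 0.0134) with the block, at 1.52-fold and 2.70-fold lower within the pairs. The unblocked value was -0.05 without sham NeuN- replicate 1 and -1.94 without kainate NeuN- replicate 1. Without both low-input libraries, which leaves 1 sham NeuN- library, it was 0.14. In neurons the kainate effect was 0.81 ± 0.52, and 0.79 ± 0.21 with the block. The oligodendrocyte precursor markers Pdgfra, Cspg4 and Olig1 summed to 703 to 2317 CPM in sham and 252 to 1277 CPM in kainate NeuN- nuclei, and all 3 were called lower with the block. The astrocyte marker sum of these libraries was 747 to 2879 CPM in sham and 515 to 2478 CPM in kainate libraries, and with the block Gfap rose (1.77) while Gja1 (-1.66) and Slc1a3 (-1.21) fell. The oligodendrocyte marker sum was 7641 to 33651 CPM in sham and 4028 to 22881 CPM in kainate libraries, and 3 of 4 of these markers were called lower with the block. The 4 microglia markers summed to 393 to 1835 CPM in sham and 322 to 895 CPM in kainate libraries, and 1 of them, P2ry12 (-2.10), was called lower with the block. The 3 choroid plexus and ependyma markers summed to 17.4 to 40.3 CPM in sham and 19.8 to 100 CPM in kainate libraries, and with the block Ttr (1.60) and Kl (0.88) were called higher while Foxj1 was at -0.91 (adjusted p = 0.309). Of the 4 fibroblast markers 1, Col1a1 (-0.74), was called lower with the block, and of the 6 neuronal markers 1, Gad1 (0.87), higher. The part of any of these cell types in the values of Sdc1, Sdc4, Gpc2 and Gpc5 in NeuN- nuclei was not tested.

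Gpc1, Gpc3 and Gpc6 were not called between the fractions of sham mice in the unblocked fit over all 11 libraries. Gpc1, the most abundant neuronal glypican and a partner of Slit and FGF ligands, was at 238, 131 and 139 CPM in sham and 349, 248 and 213 CPM in kainate neurons, and 1.46-fold to 1.90-fold higher within the pairs. The fitted effect in neurons was 0.67 ± 0.46, and 0.70 ± 0.18 with the block. Levels in NeuN- nuclei were 181 and 63.9 CPM in sham and 167, 153 and 73.5 CPM in kainate libraries, with a kainate effect of 0.10 ± 0.51 (adjusted p = 1.00). It was higher in neurons than in NeuN- nuclei of kainate mice by 1.04 ± 0.46 on the log2 scale (adjusted p = 0.217, and 0.00768 with the block). That unblocked call was lost in 6 of the 11 fits that leave out a library: sham NeuN+ replicate 2 or 3, kainate NeuN+ replicate 1 or 2, or kainate NeuN- replicate 2 or 3, with adjusted p from 0.266 to 0.535. It was also lost with no filter on low counts (1.00, adjusted p = 0.330). In sham mice it was 0.47 ± 0.52 (adjusted p = 0.740, and 0.114 with the block). It was 1.45 without sham NeuN- replicate 1 (adjusted p = 0.177), 1.44 without both low-input libraries (adjusted p = 0.242) and -0.09 without sham NeuN- replicate 3. An antisense gene, Ankmy1, shares 18.9% of its exon bases.

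Gpc3, a Hedgehog-binding glypican next to Gpc4 on the X chromosome, was a low transcript of 27 to 151 counts per library. It was at 10.1, 4.34 and 4.48 CPM in sham and 6.69, 2.34 and 1.22 CPM in kainate neurons, and 1.51-fold to 3.68-fold lower within the pairs. The fitted effect in neurons was -0.89 ± 0.71, and -1.08 ± 0.36 with the block. In NeuN- nuclei it ranged from 1.49 to 3.26 CPM in sham and from 0.843 to 3.57 CPM in kainate libraries. Every sham neuronal library was above both sham NeuN- libraries. The fractions differed by 1.41 ± 0.83 in sham mice (adjusted p = 0.455, and 0.0227 with the block) and by 0.85 ± 0.72 in kainate mice (adjusted p = 0.532, and 0.133 with the block), higher in neurons in each of the 5 pools. Unblocked, the sham value passed without sham NeuN- replicate 1 (2.11, adjusted p = 0.247) and the kainate value without kainate NeuN- replicate 1 (1.66, adjusted p = 0.231), and the kainate value was -0.07 without kainate NeuN+ replicate 1.

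Gpc6, a synaptogenic glypican next to Gpc5 on chromosome 14, ranged only from 15.0 to 32.4 CPM over the 11 libraries. It was called in none of the comparisons by edgeR over all 11 libraries with the main filter, with or without the block. Between the fractions of sham mice 4 alternatives called it, namely DESeq2 (-0.73, adjusted p = 0.212), a minimum CPM of 1 (-0.73, adjusted p = 0.134), leaving out kainate NeuN- replicate 3 (-0.88, adjusted p = 0.0927) and a separate fit of the sham libraries (-0.91, adjusted p = 0.192). The log2 difference between the fractions was -0.63 ± 0.37 in sham mice (adjusted p = 0.456) and 0.02 ± 0.34 in kainate mice (adjusted p = 0.976). In sham mice every neuronal library, at 15.0 to 20.9 CPM, was below both NeuN- libraries, at 21.6 and 32.4 CPM.

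The families were taken up from the comparison of kainate with sham neurons, so its counts are a description and no test of the members. Below an adjusted p of 0.25 lay 1 member, Sdc1 itself, beside 0.165% of all genes. With the replicate block it was 6, namely Sdc1, Sdc4, Gpc1 and Gpc5 higher and Gpc3 and Gpc4 lower, beside 5.09% of all genes. Along the 3 pairs, 9 of 10 members moved in 1 direction (6 higher, 3 lower), against 30.4% of all genes. The median log2 fold change of the members was 0.57, against -0.01 over all genes. Along these pairs the marker sums of astrocytes, microglia, pericytes and choroid plexus rose, that of fibroblasts fell, and the other sums were mixed. The microglia sum was 19.3 to 22.3 CPM in sham and 24.1 to 40.2 CPM in kainate neurons. The fibroblast sum was 42.6 to 126 CPM and 25.3 to 66.7 CPM. The part of these cell types in the neuronal values of the members was not tested.

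In NeuN- nuclei 0 of 10 members passed in edgeR's quasi-likelihood test, where 0.101% of all genes did. At an unadjusted p under 0.05 it was 1 of 10, Sdc1, higher, where 1.35% of all genes were higher at that threshold. DESeq2 called 1 member, Sdc1, where it called 1.43% of genes. With the replicate block 4 of 10 passed, Sdc1 and Sdc4 higher and Gpc2 and Gpc5 lower, where 5.79% of all genes passed. Along the 2 pairs 7 of 10 members moved in 1 direction, against 54.9% of all genes. The member median was -0.26 without and -0.26 with the block, against 0.02 and 0.11 over all genes. The rise of Sdc1 and Sdc4 and the fall of Gpc2 and Gpc5 thus passed in the fit that compares same-numbered libraries, and Sdc1 also by DESeq2.

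The kainate effect was then compared between the fractions. Sdc1 is left out of these counts, since the difference holds the neuronal effect through which it was noticed. By edgeR 0 of the other 9 members passed, where 0.00246% of all genes did. An unadjusted p under 0.05 was reached by 2, Gpc2 and Gpc5, both with a higher effect in neurons, where 0.447% of all genes did. With the block these 2 passed, where 1.94% of all genes did. DESeq2 called 0 of the 9, where it called 0.174% of genes. Gpc2 differed by 1.69 ± 0.71 on the log2 scale (adjusted p = 1.00) and by 1.99 ± 0.52 with the block (adjusted p = 0.0449), and by 1.28 to 2.15 with a library left out. Gpc5 differed by 1.78 ± 0.76 (adjusted p = 1.00) and by 1.80 ± 0.33 with the block (adjusted p = 0.000903). With a library left out it ran from 0.86, without sham NeuN- replicate 1, to 2.69, without kainate NeuN- replicate 1, and it was 0.67 without both low-input libraries. Both were higher with kainate in all 3 neuronal pairs and lower in both NeuN- pairs. Over all genes 30.4% moved in 1 direction along the neuronal pairs and 54.9% along the NeuN- pairs. The other 7 members did not pass in any of these 3 fits. The astrocyte and microglia marker sums moved along the pairs in the same way as Gpc2 and Gpc5. Single markers of both lists went both ways in neurons. The sums of oligodendrocytes and their precursors fell in both NeuN- pairs and were mixed in neurons. The part of these cell types in the differences of Gpc2 and Gpc5 was not tested.

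Sdc1 is likewise left out of the counts between the fractions. Of the other 9 members 4 passed in sham mice, where 16.7% of all genes did. Sdc4, Gpc2 and Gpc5 were lower and Gpc4 was higher in neurons. With the block 7 passed, where 34.0% of all genes did, adding Sdc3 (lower) and Gpc1 and Gpc3 (higher). In kainate mice 5 of the 9 passed, where 20.7% of all genes did. Gpc1 and Gpc4 were higher and Sdc3, Sdc4 and Gpc2 were lower in neurons. With the block 7 passed, where 49.3% of all genes did, adding Gpc3 (higher) and Gpc5 (lower). The median log2 fold change over all 10 members was -0.90 in sham and 0.03 in kainate mice, against -0.37 and -0.47 over all genes. The members thus spread to both sides, with Sdc4 and Gpc2 on the NeuN- side and Gpc4 on the neuronal side in both treatments.

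**Figure D4:**
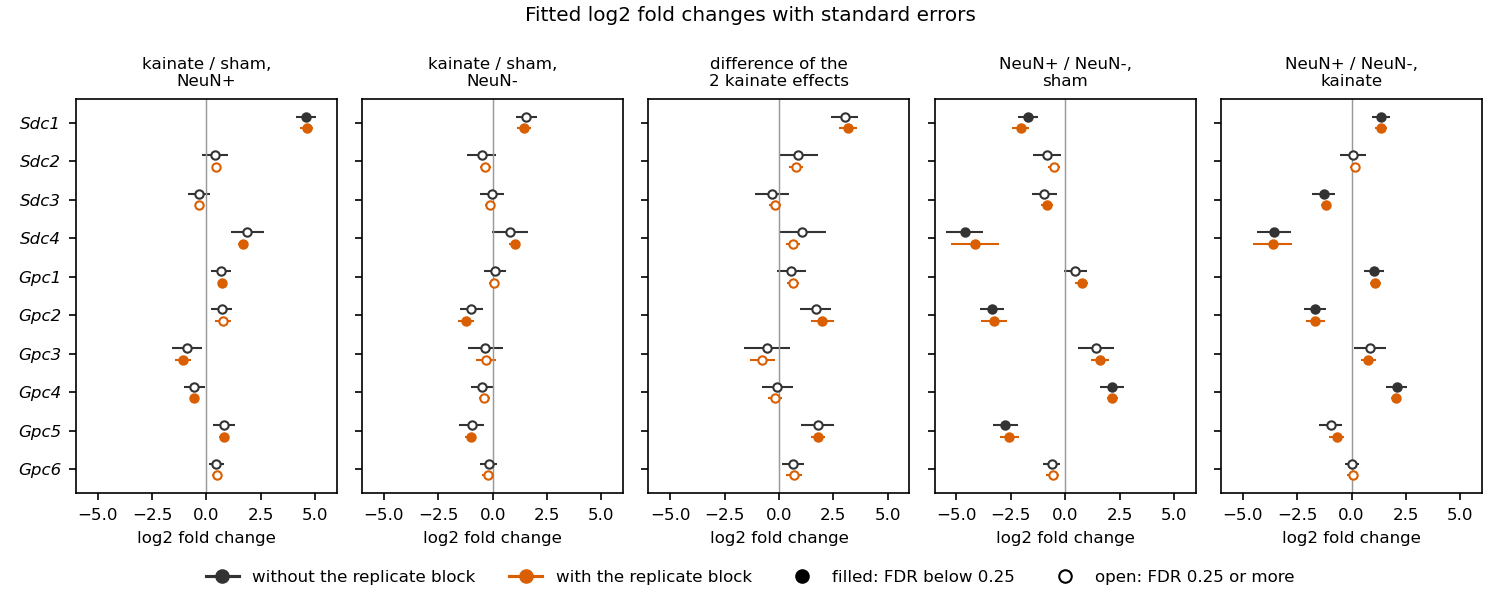
Fitted log2 fold change of each gene with its standard error in the 5 comparisons, without (dark) and with (orange) the replicate block; filled points have an adjusted p below 0.25. Sdc1 lies at 4.58 in the first panel, and Sdc4 and Gpc2 lie left of 0 and Gpc4 right of 0 in both fraction panels.

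The lists of other genes of the pathway are read against the calls over all genes. They were written with earlier results of these data known. The study had already listed Timp1, Tnc, Sulf1, Cxcl12 and Cd44 as changed in these libraries, so their values by treatment are a description. With the block 3.19% of all genes were called higher and 1.90% lower in kainate neurons, and 2.93% and 2.86% in kainate NeuN- nuclei. In sham mice 9.11% were called higher and 7.63% lower in neurons without the block, and 18.3% and 15.7% with it. Of 29 genes for heparan sulfate synthesis, 0 passed between kainate and sham in either fraction without the block, and 4 rose and 2 fell in neurons and 3 rose and 3 fell in NeuN- nuclei with it. Hs3st2, a neuronal sulfotransferase, rose in neurons with a log2 fold change of 1.49 (adjusted p = 0.000140 with the block), and Ndst1, which starts the sulfation of the chain, rose in NeuN- nuclei with 1.64 (adjusted p = 9.40e-07 with the block). Between the fractions of sham mice 8 were higher and 1 was lower in neurons (17 and 5 with the block), with a median log2 fold change of 0.51, against -0.37 over all genes. The 5 of smallest p were all sulfotransferases and higher in neurons, with log2 fold changes of 3.48 for Hs3st4, 2.93 for Ndst3, 2.47 for Hs6st2, 3.48 for Hs6st3 and 2.53 for Ndst4.

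The genes that trim, release or shed the proteins gave 1 call in each treatment comparison, Timp1, an inhibitor of the metalloproteinases that shed syndecans. Timp1 was at 0.193 to 0.890 CPM in sham and 4.33 to 7.84 CPM in kainate neurons, with a log2 fold change of 3.31 ± 0.66 (adjusted p = 0.169). In NeuN- nuclei Timp1 was at 0.511 and 0.198 CPM in sham and 30.4, 14.8 and 7.59 CPM in kainate libraries, with 5.64 ± 0.89 (adjusted p = 0.0763). With the block 5 of the 15 tested genes of this list rose and 0 fell in neurons, Sulf1, which trims sulfate groups, with 1.42 among them. In NeuN- nuclei 3 rose and 2 fell with the block. Between the fractions of sham mice 0 were higher and 6 lower in neurons, with a list median of -1.14, Mmp2 (-4.01) and Mmp14 (-4.10) among them.

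Of 32 ligands and receptors that bind heparan sulfate, Tnc, a matrix glycoprotein, was the only one called between kainate and sham neurons, with a log2 fold change of 2.20 ± 0.36 (adjusted p = 0.0738). In NeuN- nuclei 0 of 32 passed without the block. With the block 8 rose and 1 fell in neurons, Vegfa (2.03) and the chemokine gene Cxcl12 (-1.70) among them, and 8 rose and 5 fell in NeuN- nuclei. Between the fractions of sham mice 5 were higher and 17 lower in neurons, with a list median of -1.57, with the smallest p for the integrin gene Itgb5 (-5.01) and the growth factor receptor gene Fgfr2 (-3.88).

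Partners of the proteins inside the cell and at synapses gave no call by treatment without the block, for 11 cytoplasmic partners of syndecans and 12 synaptic partners of glypicans. With the block 1 of 11 cytoplasmic partners rose in neurons and 3 rose in NeuN- nuclei, Ezr, a linker to actin, in both (1.19 and 0.83). Of the synaptic partners 3 rose and 2 fell in neurons with the block, and 0 rose and 4 fell in NeuN- nuclei. The 2 that fell in neurons were Lrrtm4, the ligand of Gpc4, with -1.08 (adjusted p = 0.000190), and the AMPA receptor subunit Gria1 with -0.61 (adjusted p = 0.0402). In sham mice 7 synaptic partners were higher and 1 was lower in neurons, with a list median of 1.70, with the smallest p for Gria1 (3.53) and Nptx1 (3.34).

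Of the 10 other heparan sulfate and part-time proteoglycans, Cd44, a hyaluronan receptor that can carry such chains, was called in NeuN- nuclei. Cd44 was at 9.44 CPM in sham (mean of 2 libraries) and at 167, 146 and 59.6 CPM in kainate libraries, a log2 fold change of 3.72 ± 0.58 (adjusted p = 0.0763). In neurons 0 of 10 passed, and with the block 4 rose and 1 fell, Cd44 (1.52) among them. Beside Sdc1, Cd44 was thus a surface proteoglycan with separated kainate and sham groups in both fractions.

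Over the 11 libraries the genes whose log2 CPM followed Sdc1 most closely were Crispld2, a secreted protein gene (Pearson r = 0.967), 5033406O09Rik (0.931), the fibrillar collagen gene Col27a1 (0.929), the matricellular protein gene Ccn4 (0.914) and the myeloid receptor gene Cd300lb (0.914). The libraries share treatment, fraction and pool, so these values are a description. Col27a1 went from 14.6 ± 7.49 CPM in sham to 203 ± 79.3 CPM in kainate neurons (SD, n = 3), with 82.0 and 69.4 CPM as the means of sham and kainate NeuN- nuclei. Crispld2 went from 3.20 ± 1.34 to 24.1 ± 8.79 CPM in neurons and stood at 9.50 ± 1.23 CPM in sham NeuN- nuclei (SD, n = 2).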

How the data were processed

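The deposited table holds raw counts per gene for 11 libraries, which the authors made from trimmed reads (Trim Galore 0.4.3 per the labels) with GENCODE release 16 of the mouse annotation; the strand setting is not given in the sources used here. Methylation libraries of the series were not analysed here. Members and gene lists were chosen with earlier results of these data known. Genes without a symbol (105) were left out, as were genes under filterByExpr's minimum (count of 10). One edgeR (version 4.0.16, R 4.3.3) quasi-likelihood model with TMM factors was fitted to all groups, with Benjamini-Hochberg adjustment over 40714 genes and a threshold of 0.25. The threshold is that of the study, which analysed the fractions separately. Separate fits are an alternative here and tested 30259 genes in NeuN+ and 39857 in NeuN- nuclei, with 390 and 0 calls. The study kept fewer genes and called genes in both fractions, so these fits do not repeat it. Replicates are pools. In the main fit p-values measure the spread between libraries of a group, and the 11 libraries are treated as independent although both fractions come from the same pools. With the block, p-values measure the spread left within same-numbered pairs or within pools. The blocked difference of the kainate effects does not model that the fractions share pools. All members are named, with the called genes of each list of smallest p, at most 5 per list, and the 5 genes most like Sdc1 (log2 CPM, prior count 2).

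Same-numbered kainate and sham libraries had deviations correlated at 0.643, 0.161 and 0.491 in NeuN+ and 0.760 and 0.787 in NeuN- nuclei, and fractions of the same pool at 0.240 to 0.668. Libraries of different numbers ran from -0.600 to 0.418 in NeuN+ and from -0.787 to 0.210 in NeuN- nuclei, and from -0.668 to 0.465 between fractions, and kainate NeuN+ replicate 2 correlated slightly better with sham replicate 3 (0.166) than with its own number. Every same-numbered pair was positively correlated, and the numbers were taken as pairs. This pairing was read from the data it is used on, since no source used here pairs kainate with sham pools. Deviations from a group mean are also tied to each other. The 2 sham NeuN- libraries mirror each other, so for kainate NeuN- replicate 1 the 0.760 with sham replicate 1 comes with -0.760 with sham replicate 3. A fit with the replicate number within each fraction (between fractions, the pool) as block is printed where it changes a call. Lengths and coordinates are from GENCODE release 21 (GRCm38). DESeq2 (1.42.0), other filters, scalings and left-out libraries were alternatives.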

Additional observations from a re-analysis of the deposited data

Results flagged for a closer look

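For Gpc2 and Gpc5 the kainate effect differed between NeuN+ and NeuN- nuclei by an interaction term with the replicate block in edgeR's quasi-likelihood test. The effect was larger in neurons by 1.99 on the log2 scale for Gpc2 (adjusted p = 0.0449) and by 1.80 for Gpc5 (adjusted p = 0.000903). For Sdc1 it was larger by 3.19, a description with no test, since the gene was noticed through the neuronal libraries. Gpc2 and Gpc5 were higher with kainate in 3 of 3 neuronal pairs and lower in 2 of 2 NeuN- pairs. Over all genes 30.4% moved in 1 direction along the neuronal pairs and 54.9% along the NeuN- pairs. The Gpc5 difference was 0.67 without both low-input libraries, which leaves 1 sham NeuN- library. Gpc2 held 11 to 77 counts in neurons, and Gm43720 shares 55.6% of its exon bases. Without the block neither Gpc2 nor Gpc5 passed, in edgeR or in DESeq2 over all libraries (adjusted p = 1.00 for each). The astrocyte and microglia marker sums moved the same way along the pairs, and the part of these cells in the differences was not tested. No group had 4 or more libraries, so libraries that stand apart within a group were not tested.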

How the results depend on the processing

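These counts include Sdc1, whose place in them is a description except in NeuN- nuclei. The count of members called moved with the replicate block to 6 in kainate against sham neurons, to 4 in NeuN- nuclei, to 3 for the difference of the kainate effects and to 8 between the fractions of sham mice. DESeq2 gave 1 in NeuN- nuclei and 1 for the difference of the effects. Over all genes, calls in neurons went from 67 to 2072 with the block and 360 by DESeq2, and in NeuN- nuclei from 41 to 2357 and 254. For the difference of the effects they went from 1 to 788 and 31, and between the fractions with the block from 6816 to 13859 in sham and from 8442 to 20072 in kainate mice. Fitting each fraction alone gave 390 calls in neurons and 0 in NeuN- nuclei, and an adjusted p below 0.05 left 8 and 1. An adjusted p below 0.05 left 3 members between the fractions of kainate mice. Leaving out a library gave 1 to 1 in neurons, 0 to 1 in NeuN- nuclei, 0 to 0 for the difference, 5 to 7 between the fractions of sham and 4 to 7 of kainate mice. Where it changed a call the blocked value stands beside the result, and the replicate block changed no other call of a member. The block, by replicate number within each fraction or by pool between the fractions, leaves 3 residual degrees of freedom and rests on 2 pairs in NeuN- nuclei.

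Values that changed sign were not called in the fit over all libraries without the block, and the cause was not tested. With the block 5 of them were called, namely Sdc4 and Gpc5 in NeuN- nuclei, Sdc3 and Gpc1 between the fractions of sham mice and Gpc3 between those of kainate mice. For kainate against sham NeuN- nuclei the log2 fold changes without both low-input libraries were 1.05 for Sdc2, 0.90 for Sdc3, 0.57 for Gpc3, 0.25 for Gpc4, 0.14 for Gpc5 and 0.15 for Gpc6. Sdc3 there was 0.25 with low RNA input as a covariate and 0.01 in a separate fit. For the difference of the effects, values without the low-input libraries were -0.66 for Sdc2, -0.72 for Sdc4 and -0.26 for Gpc1, and Gpc4 was 0.02 with DESeq2's size factors and 0.02 by DESeq2. Between the fractions of sham mice they were 0.61 for Sdc2 and 0.01 for Sdc3. Between those of kainate mice Sdc2 was -0.02 without a filter, -0.04 with a minimum CPM of 1, -0.05 without the low-input libraries and -0.02 in a separate fit, and Gpc6 -0.08 with that minimum and -0.06 in the separate fit.

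Leaving out 1 library at a time gave these ranges where a sign changed. In NeuN- nuclei they were -1.26 to 0.95 for Sdc2, -0.60 to 0.93 for Sdc3, -0.14 to 2.42 for Sdc4, -0.47 to 1.07 for Gpc1, -1.26 to 0.36 for Gpc3, -0.94 to 0.16 for Gpc4 and -0.50 to 0.16 for Gpc6. For the difference of the effects they were -0.56 to 1.62 for Sdc2, -1.29 to 0.24 for Sdc3, -0.55 to 1.99 for Sdc4, -0.39 to 1.14 for Gpc1, -1.47 to 0.31 for Gpc3 and -0.71 to 0.37 for Gpc4. Between the fractions of sham mice they were -1.55 to 0.61 for Sdc2, -1.52 to 0.01 for Sdc3 and -0.09 to 1.45 for Gpc1, and of kainate mice -0.46 to 0.68 for Sdc2, -0.07 to 1.66 for Gpc3 and -0.31 to 0.27 for Gpc6. In neurons Sdc2 ran from -0.00 to 0.95.

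Depth limits Sdc1, Gpc2 and Gpc3 most, with as few as 10, 11 and 27 counts in a library. Levels with DESeq2's size factors stayed within the spread between replicates.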

Other observations

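Summed over each family per kilobase of exon, syndecans stood at 33.1 ± 13.1 CPM per kb in sham and 45.3 ± 7.36 in kainate neurons (SD, n = 3), and glypicans at 62.0 ± 22.6 and 77.1 ± 21.8. In NeuN- nuclei syndecans stood at 93.0 (n = 2) and 115 ± 71.3 (n = 3), and glypicans at 54.8 and 44.1 ± 19.2. Syndecans were thus the smaller share of the sum in neurons and the larger share in the NeuN- means. Sdc1 made up 0.606% of the summed level of the 10 genes in sham and 9.73% in kainate neurons, and Gpc4 21.7% and 11.4%. In NeuN- nuclei Sdc4 made up 19.1% in sham and 32.8% in kainate libraries. These sums were not tested.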
